A study of Rattus norvegicus with 4 samples.

Results

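The interleukin-1 family and inflammasome genes described here are 10 rat genes: Il1a, Il1b, Il1rn, Il18, Nlrp3, Pycard, Casp1, Gsdmd, Nlrc4 and Aim2. Members were found by matching the transcript accession of each non-control array probe, without its version, to the RefSeq gene table for rat. By this match 7 of the 10 genes had a probe, and Gsdmd, Nlrc4 and Aim2 were matched to none, so their transcripts are not analysed here. The 7 genes were measured by 9 probes on 18 spots, out of 45598 probes on 58717 spots per array. Of these genes, 6 had a single probe each, Nlrp3 had 3, and the Il1rn probe was printed on 10 spots.

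Interleukin-1 alpha and beta are early inflammatory cytokines that act on the same receptor, and the interleukin-1 receptor antagonist occupies that receptor without signalling. Interleukin-1 beta and interleukin-18 are made as inactive precursors and are cleaved by caspase-1, which is activated in the inflammasome, a cytosolic complex of a sensor such as NLRP3 and the adaptor ASC, the product of Pycard. Macrophages that take up particles are a classical setting for this pathway, in which transcription of the cytokine and sensor genes and activation of the protease are separate steps. An array reads the transcripts alone, so nothing below bears on cleavage or release of the cytokines.

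The cells were NR8383, an alveolar macrophage line established from a normal rat by lung lavage, used at passage 20 and exposed for 4 h to the titanium dioxide material NRCWE001 at a dose of 3 cm2 of particle surface per cm2. There were 4 cultures (replicates 1 to 4, biological replicates per the series' design text), each measured on a 1-colour array. The design text also names cells without particles. Those cells are not analysed here, and without them the values describe exposed cells and give no effect of exposure. With 1 array per culture, differences between cultures and between arrays cannot be told apart.

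A level below is the log2 of a probe's processed signal after subtraction of the log2 of the 75th percentile of all non-control spots on the same array, so a level of 0 equals that percentile. The percentile was 433, 347, 554 and 414 intensity units on replicates 1 to 4, and the median local background was 36 to 41 units. A probe counted as detected on an array where Feature Extraction marked it as well above background on over 0.5 of its spots. The lowest signal so marked was 13.5 units on replicate 1 and 16.3 to 16.6 units on the others. No spot was saturated. Brightness differs between probes for reasons other than transcript number, so the level of a probe is set against its own values on other arrays and not against other probes. Of 12 macrophage markers, 10 were detected on all 4 arrays, among them Cd68, Lyz2 and Spi1, while Adgre1 and Marco were detected on none. None of 7 lung epithelium markers, 1 of 4 lymphocyte markers (Lck) and 1 of 5 granulocyte and mast cell markers (S100a8) were detected on all 4. Of 6 fibroblast and endothelium markers 3 were, namely Cdh5, Vwf and Pecam1, while Col1a1, Col1a2 and Dcn were detected on none.

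All 9 member probes, and so all 7 genes with a probe, were detected on all 4 arrays. Across the whole array 31.8% of probes and 45.7% of named genes were. The margins differed widely between probes. Il1b and Il1rn lay at least 266 and 279 times above the lowest detected signal of their array. Pycard, Il18, Il1a and the brightest Nlrp3 probe lay at least 33.8, 21.4, 16.2 and 14.5 times above it. Casp1 and the other Nlrp3 probes lay close to it, at 2.23, 1.62 and 1.43 times on their lowest array, so their values carry the largest error. The deposited error of the processed signal, which Feature Extraction estimates for each spot, averaged 0.14 to 0.15 on the log2 scale for the 6 brighter probes and 0.19 to 0.25 for these 3.

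**Figure D1:**
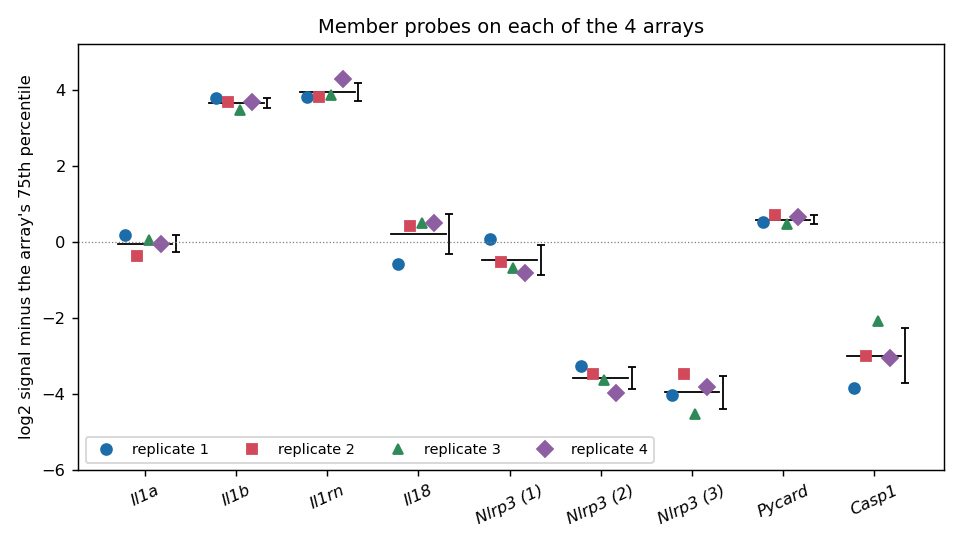
Level of each member probe (log2, relative to the 75th percentile of its array, y axis) on replicates 1 to 4, with the mean as a line and the SD over 4 arrays as a bar. Nlrp3 (1), (2) and (3) are its 3 probes from brightest to dimmest. The 4 points of Il1b and Pycard lie close together, Il18 has 1 low point on replicate 1, and Casp1 spans a log2 range of 1.75.

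Among the cytokine genes, Il1b, which codes for interleukin-1 beta, was bright on every array. Its processed signal was 5958, 4430, 6139 and 5252 units on replicates 1 to 4, giving levels of 3.78, 3.68, 3.47 and 3.66 and a mean of 3.65 ± 0.13 (SD, n = 4). The highest and lowest cultures differed 1.24-fold. That spread was smaller than the deposited spot error of 0.14 and smaller than the 0.17 usual for probes of its level. Replicate 3 was the low array for Il1b, at 0.18 below the mean, and the 40 detected spots around it on the array had a median deviation of -0.14 there.

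Il1a codes for interleukin-1 alpha, which is active without cleavage by caspase-1. Its processed signal was 488, 269.8, 573 and 400.1 units, and its levels were 0.17, -0.36, 0.05 and -0.05, with a mean of -0.05 ± 0.23 (SD, n = 4). Replicate 2 was the low array and replicates 1, 3 and 4 lay within 0.22 of each other. Its highest and lowest levels differed 1.45-fold, while those of the neighbouring spots deviated by at most 0.08 in the median on any array. Unlike Il1b, Il1a was not lowest on replicate 3, the lowest array for 43.0% of all detected probes.

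Il1rn, the receptor antagonist gene, was bright on every array. Its processed signal, as the arithmetic mean over unflagged spots, was 6133, 4866, 8037 and 8029 units. Its levels, each a mean over 9 or 10 spots, were 3.81, 3.81, 3.86 and 4.27, with a mean of 3.94 ± 0.23 (SD, n = 4). Replicates 1 to 3 lay within 0.05 of each other and replicate 4 lay above them. The 10 spots also measured the repeatability within an array. On replicates 2, 3 and 4 the unflagged spots ran from 4648 to 5125, from 7728 to 8370 and from 7437 to 8815 units, with SDs of 0.04, 0.04 and 0.08 on the log2 scale. The noise between spots was smaller than the lead of replicate 4, and the SD over arrays was 1.30 times that usual for probes of its level (limma, adjusted p = 0.993). That usual value was fitted on level alone, over probes most of which had 1 spot. It makes no allowance for the averaging of 9 or 10 spots here. Without replicate 4 the SD over arrays fell from 0.23 to 0.03.

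On replicate 1 the Il1rn spots agreed less well. The 9 unflagged spots ran from 5378 to 8982 units, with an SD of 0.23. The brightest stood at column 13 of the array, and the next brightest was at 6600.4 units. Before correction the median signal of the spot at column 13, less its local background, was 5285 units, inside the range of 4798 to 6886 units of the unflagged spots on that array. Its processed signal was 1.70 times that value, whereas the ratio was 1.07 to 1.11 for the same spot on the other arrays. Left out, it changed the level of replicate 1 from 3.81 to 3.74 and the mean over arrays from 3.94 to 3.92, and replicate 4 stayed the highest.

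**Figure D2:**
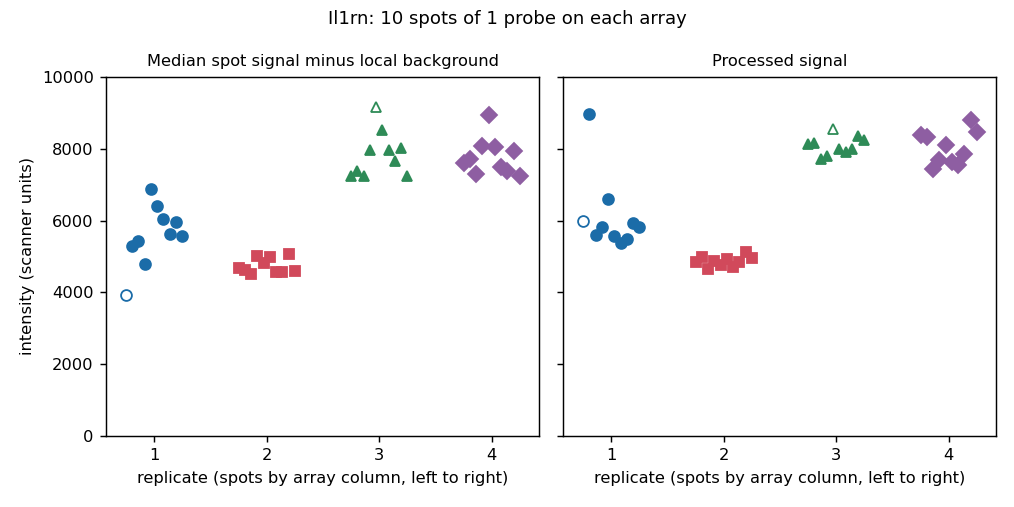
The 10 spots of the Il1rn probe on each array, in scanner intensity units (y axis), as the median spot signal minus local background (left) and as the deposited processed signal (right). Spots run from left to right by array column, and open symbols are spots flagged as outliers. On replicate 1 the spot at column 13 stands at 8982 units after processing and at 5285 units before it.

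The promoters of these 3 genes are shown because Il1a, Il1b and Il1rn are the interleukin-1 genes detected here whose sequence upstream of the start site held any of the motifs searched for. They lie on the same chromosome. Each line gives the 250 bases before the start site in RefSeq's rat promoter table, build GRCr8, 5′ to 3′ on the gene's strand. Capitals mark TATAAA or its reverse complement TTTATA and, in Il1a, the AP-1 type motif TGANTCA. Il1a lies on the minus strand at chr3:136990018-136990267, Il1b on the minus strand at chr3:137036582-137036831 and Il1rn on the plus strand at chr3:27520072-27520321.
Il1a: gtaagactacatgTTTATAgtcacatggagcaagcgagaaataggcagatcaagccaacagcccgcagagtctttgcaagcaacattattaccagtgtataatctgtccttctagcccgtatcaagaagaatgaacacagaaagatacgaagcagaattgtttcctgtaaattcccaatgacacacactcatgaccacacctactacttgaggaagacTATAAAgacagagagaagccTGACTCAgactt
Il1b: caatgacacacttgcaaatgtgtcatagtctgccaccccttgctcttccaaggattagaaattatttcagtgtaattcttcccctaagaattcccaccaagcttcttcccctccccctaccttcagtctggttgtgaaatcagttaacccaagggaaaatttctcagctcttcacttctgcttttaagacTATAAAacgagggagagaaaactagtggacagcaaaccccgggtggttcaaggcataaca
Il1rn: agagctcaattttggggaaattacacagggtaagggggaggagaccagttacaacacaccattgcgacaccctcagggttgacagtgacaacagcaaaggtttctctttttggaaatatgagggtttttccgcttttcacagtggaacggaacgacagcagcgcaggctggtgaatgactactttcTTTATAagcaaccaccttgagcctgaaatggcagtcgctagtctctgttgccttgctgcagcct

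The letters TATAAA were found on the gene's strand at -32 to -27 in Il1a and at -60 to -55 in Il1b, and on the other strand in Il1rn at -64 to -59 and again in Il1a at -237 to -232. The table held a window for 8 members, the 7 genes with a probe and Aim2. In all 3 of 8 member windows held TATAAA on either strand, against 12.9% of the 33469 windows of that length. TGANTCA was found in Il1a alone among the members, at -12 to -6, against 6.34% of windows. The NF-kB type consensus motif (16.4% of windows) and the PU.1 type motif AGAGGAAG (3.58%) were found in none of the 8 on either strand. These letters describe the windows and are not a measure of binding.

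Il18 codes for interleukin-18, the other cytokine that caspase-1 matures. Its processed signal was 289.5, 460.5, 784 and 578 units on replicates 1 to 4. The levels were -0.58, 0.41, 0.50 and 0.48, with a mean of 0.20 ± 0.52 (SD, n = 4). Replicates 2 to 4 lay within 0.09 of each other, and replicate 1 lay a log2 difference of 0.99 to 1.08 below them, which is 1.99- to 2.12-fold. The deposited spot error of replicate 1 was 10.2% of its signal. The spot was at column 19, and the 33 detected spots around it deviated by 0.06 in the median on replicate 1, with an SD of 0.35 between them. Before correction the spot was relatively lower still on replicate 1, since the processed signal was 1.42 times the median signal less background there and 1.01 to 1.04 times on the other arrays.

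The sensor gene Nlrp3, whose product starts assembly of the inflammasome after membrane damage or ion efflux, was read by 3 probes. The brightest was annotated to a different RefSeq transcript from the dimmer probes, which shared theirs. Whether the 3 probes read the same transcripts was not tested. The brightest, A_44_P1109874, gave 454, 242, 342 and 236 units and levels of 0.07, -0.52, -0.70 and -0.81, with a mean of -0.49 ± 0.39 (SD, n = 4). Replicate 1 was the high array, 1.84-fold above replicate 4. That spot was at column 7, where the processed signal was 1.41 times the median signal less background on replicate 1 and 1.02 to 1.11 times on the others. A background correction of the median signals that includes no such step, but adds 50 units to each spot, was also used. With it the deviation of replicate 1 was 0.23 instead of 0.56. Whether the array position set the high value was not tested.

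Of the dimmer Nlrp3 probes, A_44_P281733 gave the same order of arrays as the brightest and A_44_P1109879 another. Probe A_44_P281733 gave 45.2, 31.2, 45.0 and 26.5 units, and like the brightest probe it was highest on replicate 1 and lowest on replicate 4, with a mean of -3.58 ± 0.30 (SD, n = 4). Probe A_44_P1109879 gave 26.7, 31.3, 23.9 and 29.3 units and was highest on replicate 2 and lowest on replicate 3, with a mean of -3.96 ± 0.45. Its deviations had the sign of those of the brightest probe on 1 of 4 arrays and differed from them by up to 0.62. Those of A_44_P281733 had the same sign on 3 of 4 arrays and differed by up to 0.24. All 3 probes were above background on every array. In the processed signals the disagreement on the order of cultures came from A_44_P1109879, which lay 1.43 to 1.97 times above the lowest detected signal. With the correction of median signals A_44_P281733 no longer followed the brightest probe. It was then highest on replicate 2, with a deviation of 0.17, and lowest on replicate 3, at -0.15, as A_44_P1109879 was. The mean levels of both dim probes also depended on the background method, at -2.43 for A_44_P281733 and -2.41 for A_44_P1109879 with the correction of median signals. The 50 units which that correction adds by themselves raise the levels of such dim probes.

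Pycard, the gene of the adaptor ASC that links the sensor to caspase-1, varied least of the 9 probes. Its processed signal was 616, 563, 765 and 651 units, and its levels were 0.51, 0.70, 0.47 and 0.65, with a mean of 0.58 ± 0.11 (SD, n = 4). The highest and lowest arrays differed 1.18-fold, and the SD was below the spot error of 0.14. No array stood apart.

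Casp1, the gene of the protease that cleaves the cytokine precursors and gasdermin D, was dim and varied most. Its processed signal was 30.2, 43.6, 130.4 and 49.9 units on replicates 1 to 4, with levels of -3.84, -2.99, -2.09 and -3.05 and a mean of -2.99 ± 0.72 (SD, n = 4). Replicate 3 was high and replicate 1 low, 3.37-fold apart, while replicates 2 and 4 were almost equal. The deposited error was 10.5% of the signal on replicate 3 and 17.8% on replicate 1. The spot at column 14 had 40 detected neighbours, whose median deviation was -0.15 on replicate 1 and 0.00 on replicate 3. With the background correction of median signals the deviations of replicates 1 and 3 were -0.50 and 0.34, instead of -0.85 and 0.91. The mean level was -2.08 instead of -2.99. That correction adds 50 units to each spot, while this spot had 29 to 130 units of median signal less background. Such an addition by itself raises a dim level and shrinks its deviations, and its share in the change was not tested.

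**Figure D3:**
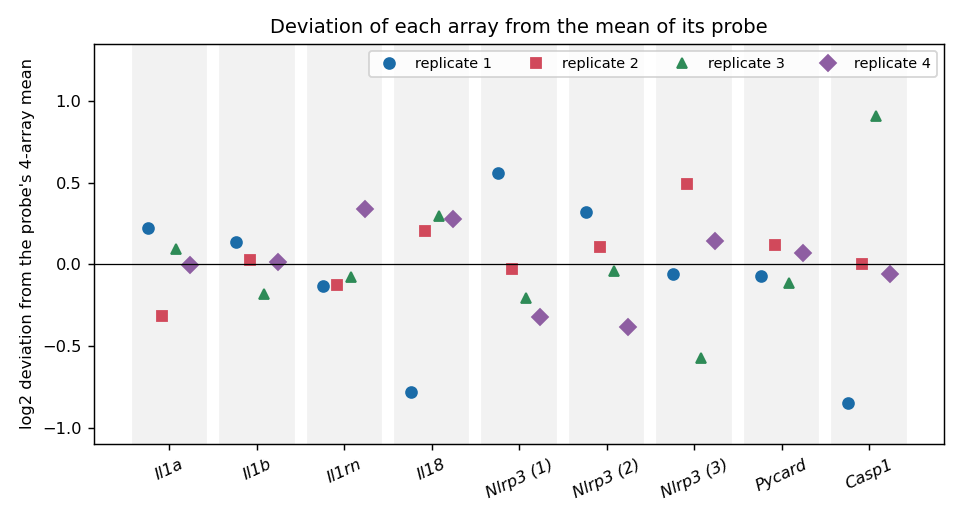
Deviation of each array from the 4-array mean of its probe, in log2 units (y axis), for the 9 member probes. Replicate 1 is the low array for Il18 and Casp1 and the high array for Il1a, Il1b and 2 of the 3 Nlrp3 probes, so the members do not share an order of arrays.

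Taking the 9 probes together, no array was uniformly high or low. Replicate 1 was the highest array for 4 probes and the lowest for 3, and 5 of 9 lay below their own mean there, against 48.4% of all 14518 probes detected on all arrays. Replicate 3 was below the mean for 6 of 9, against 63.4% of all detected probes, whose median deviation on that array was -0.07. The counts for replicates 2 and 4 were 3 and 4 of 9, against 41.0% and 41.4%.

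The spread between arrays was then compared with that of probes of like level, using limma's prior variance with a trend on level over all 14518 detected probes. The median SD was 0.30 for the 9 member probes and 0.18 for all detected probes of any level, and 7 of the 9 lay above the latter. Without replicate 1 these medians were 0.21 and 0.17, with 5 of 9 above. These medians are not matched for level, since the prior SD was 0.26 for Casp1 and 0.29 and 0.30 for the dimmer Nlrp3 probes. The member probe with the SD of 0.30, Nlrp3 A_44_P281733, had 1.04 times the prior SD of its level. At an adjusted p under 0.05, 0 of 9 member probes were called more variable, against 0.434% of all probes tested. At an unadjusted p under 0.05, 3 of 9 passed in limma's test, namely Il18, Casp1 and the brightest Nlrp3 probe, against 6.92% of all. Their SDs were 3.15, 2.71 and 2.22 times the prior SD of their level. Their adjusted p-values by limma were 0.0575, 0.15 and 0.415, and those of the other 6 probes ran from 0.934 to 0.993. The call for Il18 depended on the processing. With the brightest probe of each named gene alone, 7570 in all, its adjusted p by limma was 0.0297. It also passed after a background correction of the median signals (limma, adjusted p = 7.96e-07), with all probes whether detected or not (0.0275) and without replicate 2 (0.00451). In these settings 388, 217 and 149 probes in all were called, against 63 in the main setting. The correction of median signals does not remove a trend over the array surface. With it the Il18 deviation on replicate 1 was -0.97 instead of -0.78. The other 10 alternatives did not call Il18. Casp1 passed without replicate 2 alone (limma, adjusted p = 0.00855).

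**Figure D4:**
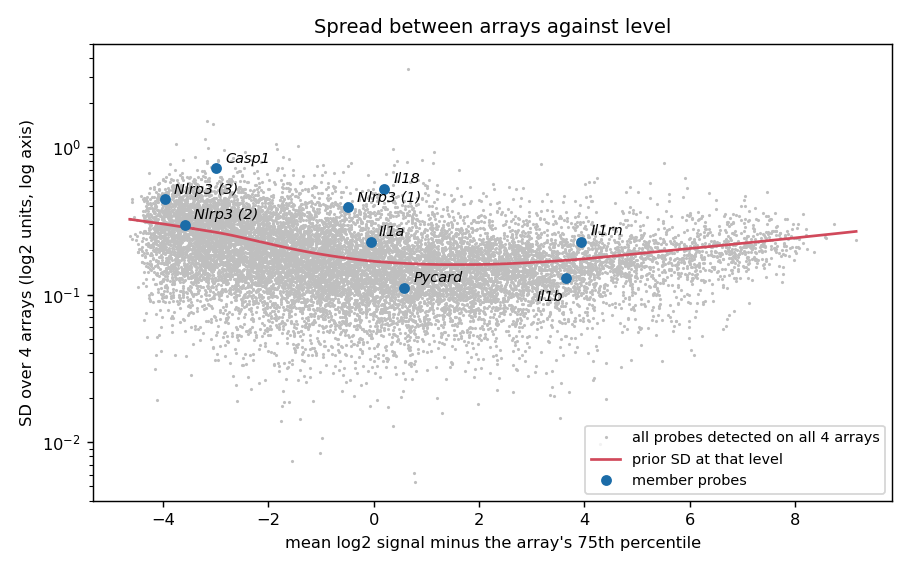
SD over 4 arrays (log2 units, log axis) against mean level for the 14518 probes detected on all arrays (grey), with the member probes in blue and the prior SD fitted at each level as a line. Il18, Casp1 and Nlrp3 (1) lie farthest above the line, and Pycard and Il1b lie below it.

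The 6 single-spot member probes of Il18, Casp1, Pycard and Nlrp3 all lay at columns 1 to 72 of the 164 columns, and those of Il1a and Il1b lay beyond them. On that side of the replicate 1 array 5.42% of single-spot probes lay over 0.5 below their mean, against 0.653% beyond it. Of the 63 probes called more variable on the whole array, 44 had replicate 1 as the farthest array, on the low side. Of these 44, 43 had their first spot at columns 1 to 72. Over 4 arrays the median SD was 0.20 at columns 1 to 72 and 0.17 beyond. Without replicate 1 these were 0.16 and 0.17. The boundary at column 72 was taken from an earlier look at these arrays. With each spot's local median deviation removed, SDs were 0.57 for Il18, 0.67 for Casp1 and 0.36 for the brightest Nlrp3 probe. They were 0.52, 0.72 and 0.39 without this step, which was added after seeing the data. The part that position has in the spread of the inflammasome genes was not tested.

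**Figure D5:**
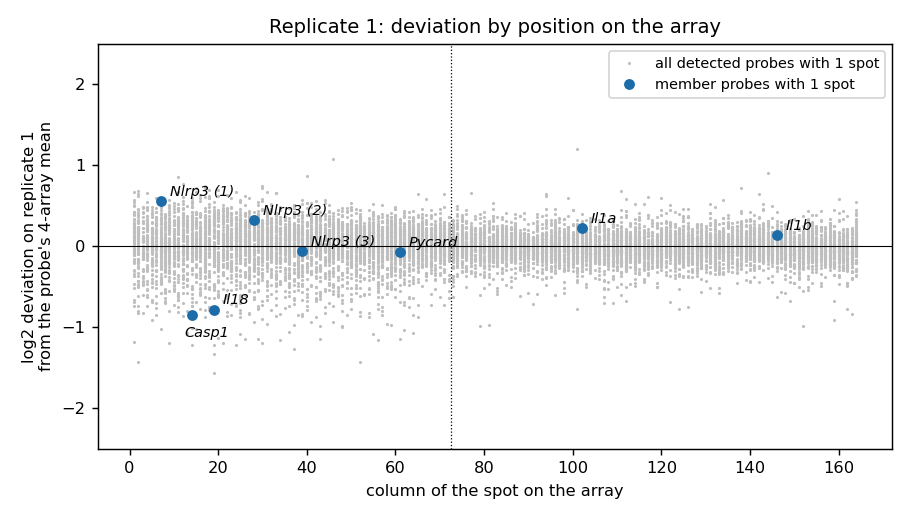
Deviation on replicate 1 from the 4-array mean of the probe (log2 units, y axis) against the column of the spot on the array (x axis), for detected probes with 1 spot (grey) and the 8 such member probes (blue). The dotted line is the boundary after column 72. The grey points spread more widely to its left, where Il18 and Casp1 lie at -0.78 and -0.85, and 1 grey point lies outside the axis.

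For the pattern over arrays, the genes nearest to Il1b among 7569 others (smallest root mean square difference of deviations over 4 arrays, brightest probe of each gene) were Parp3 (0.003), Kazald1 (0.010) and Itsn1 (0.011), and 281 genes lay within 0.05 of it. Those nearest to Il18 were C14h4orf19 (0.008), Bet1 (0.029) and Arl6ip1 (0.034), and 6 genes lay within 0.05. With 4 arrays and this many genes such closeness is a description. The 3 genes nearest to Il18 deviated by -0.77, -0.78 and -0.80 on replicate 1. This follows from their choice by nearness to Il18 and is no separate result. Their first spots were at columns 19, 19 and 9, with Il18 at column 19. Those of the genes nearest to Il1b were at columns 50, 54 and 26, with Il1b at column 146. The part of array position in these patterns was not tested.

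The wider pathway was read from 51 further genes, 44 of them with a probe, and 20 passed detection on every array (45.5%, near the 45.7% of all named genes). Another 6 were detected on 1 to 3 arrays and 18 on none. Each of the 20 was read by its brightest probe detected on all arrays. Irak1, Casp8 and Nod1 had a further probe that was also detected on all arrays. Il1rap, Map3k7 and Sting1 had a further probe that was not. Their median SD was 0.15, and 0 of these 20 probes were called more variable by limma.

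Other ligands of the interleukin-1 family were mostly not well above background. None of 6 was detected on all arrays. Il33, the alarmin that acts on ST2, was detected on 1 array and Il36b on 2, while Il36a, Il36g, the antagonist gene Il36rn and Il1f10 were detected on none. The receptors were also largely dim, with 2 of 8 detected. Il1r1, the signalling receptor of interleukin-1, the decoy receptor gene Il1r2, Il1rl1 (ST2), Il1rl2, Il18r1 and the inhibitory receptor gene Sigirr passed detection on no array. The shared co-receptor gene Il1rap lay at -1.63 ± 0.24 (SD, n = 4) and Il18bp, a secreted inhibitor that binds interleukin-18, at -1.72 ± 0.07.

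Signalling genes below the receptors were detected in 8 of 9 cases. The adaptor gene Myd88 lay at 4.26 ± 0.21, the kinase genes Irak1 and Irak2 at -0.18 ± 0.12 and -0.94 ± 0.14, and Irak3, which restrains the pathway, at 1.30 ± 0.11 (SD, n = 4). The inhibitor gene Tollip lay at 1.23 ± 0.05, Tab1 at 1.19 ± 0.14, the kinase gene Map3k7 at -2.12 ± 0.17 and the ubiquitin ligase gene Traf6 at -3.84 ± 0.15. Irak4, the kinase directly recruited by MyD88, was not well above background on any array. The 8 SDs ran from 0.05 to 0.21, against a median of 0.18 over all detected probes.

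Of 21 measured sensors, proteases and other inflammasome partners, 10 were detected on all arrays. Casp4, whose product senses cytosolic lipopolysaccharide, lay at -2.97 ± 0.35, and Casp8 at -2.18 ± 0.04 (SD, n = 4). The lysosomal protease gene Ctsb lay at 7.39 ± 0.26, the NLRP3-binding protein gene Txnip at -1.04 ± 0.41 and Ninj1, which ruptures the membrane of dying cells, at 2.47 ± 0.08. The ion channel gene P2rx4 lay at -1.56 ± 0.20, the guanylate-binding protein gene Gbp2 at 0.04 ± 0.24, the DNA-sensing adaptor gene Sting1 at -1.58 ± 0.36, the peptidoglycan sensor gene Nod1 at 3.67 ± 0.12 and the adaptor gene Card9 at 1.34 ± 0.15. Txnip was lowest on replicate 1 like Il18, at -1.63 against -0.98 to -0.75 on the others, and was not called (limma, adjusted p = 0.447). Of the other detected pathway genes, Il18bp, Map3k7, Ninj1 and Ctsb were also lowest on that array, as were 21.2% of all detected probes.

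The remaining partners divided into partly and never detected genes. Nlrp1a and Ripk2 were detected on 3 arrays, Gbp5 on 2 and Nek7, an NLRP3-binding kinase gene, on 1. P2rx7, the ATP-gated channel that triggers NLRP3 in primed macrophages, passed detection on no array, and the same held for Panx1, Mefv, Nlrp6, Nlrp12, Casp12 and Gsdme. A probe that stays at background says only that these probes gave no such signal.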

How the data were processed

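Total RNA of 4 NR8383 cultures of 1 treatment group was measured on 4 Agilent 1-colour (Cy3) arrays of 1 slide and 1 scan, per the file headers, with group and replicate number taken from the sample titles. Per the file headers, the deposited intensity values are processed signals from Feature Extraction 11.0.1.1, which subtracted a background and removed a trend over the array surface. No scaling between arrays had been applied. Median spot and background intensities and the flags are also as deposited by the authors. The grid's own annotation predates GRCr8, whose gene table therefore served for names alone. Promoter motifs were searched in the 250 bases upstream of the start site, instead of the whole 300-base windows first planned.

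Outlier-flagged spots (634 to 669 per array) were left out, and each array's 75th percentile was subtracted on the log2 scale, a step done here and not by the authors, who deposited no log2 values. Spots of a probe were averaged. Of 45598 probes 21109 were named and 24489 were not. Each probe's variance over 4 arrays (3 degrees of freedom) was divided by limma's prior variance (limma 3.58.1, R 4.3.3, fitted robustly with a trend, with 20.9 degrees of freedom for the prior), and upper-tail F p-values were adjusted by the Benjamini-Hochberg method over 14518 probes. The procedure was also run on simulated levels with independent noise, without a trend of spread on level and without an effect of array position. That run does not measure the power to call spreads of the size seen in the member probes. Precision is limited by having 4 arrays.

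The members, lists and tests were chosen with earlier results of these data known. All members and all listed pathway genes are named, with the 3 genes nearest to Il1b and to Il18. Alternatives were other background corrections, scalings, flags, priors, units and each replicate left out. Removal of each spot's local median deviation (spots within 5 rows and 5 columns) was added after seeing the data. The normexp correction (offset 50) used median signals.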

Additional observations from a re-analysis of the deposited data

Results flagged for a closer look

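Of 44 levels of member probes and detected pathway and marker genes, 3 had 1 array apart from the other arrays by Dixon's ratio of gap to range (6.82%, where chance gives 5%).

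The Il1rn level had a ratio of 0.891, with replicate 4 high at 4.27 against 3.81, 3.81 and 3.86. The Il18 level had a ratio of 0.915, with replicate 1 low at -0.58 against 0.41, 0.50 and 0.48. The level of Il18bp, whose product binds interleukin-18, had a ratio of 0.887, with replicate 1 low at -1.83 against -1.68, -1.70 and -1.69, a gap of far smaller size in log2 units than that of Il18.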

How the results depend on the processing

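All 9 member probes were detected on all arrays under the other detection flag, with flagged spots kept and without each replicate. The 9 levels kept within 1 SD of the reported value in 56 of 82 alternatives and moved by more in 26. All 9 moved when scaled to the median or to the 75th percentile over detected probes. The Nlrp3 level moved from -0.49 for its brightest probe to -2.68 as the mean over its detected probes. Normexp added an offset of 50 units to every spot, which weighs most on dim probes. With normexp the dim probes moved most, Casp1 from -2.99 to -2.08 and the dimmer Nlrp3 probes from -3.58 to -2.43 and from -3.96 to -2.41, while Il1b and Il1rn moved to 3.36 and 3.70. Scaling to the median raised all detected probes by 5.65 in the median, taking the percentile over detected probes changed them by -3.80, normexp by 0.11 and keeping flagged spots by -0.16. The number of member probes called more variable was 1 with normexp, with all probes whether detected or not and with 1 probe a gene, each time Il18, and 0 to 2 when a replicate was left out. The number among all probes was 63, and it was 388 with normexp, 31 with the median as scale, 1 with that percentile, 1 after quantile normalization, 38 with flagged spots kept, 1 without the trend, 16 without robust estimation, 217 with all probes, 39 with 1 probe a gene, 35 with columns 1 to 72 left out and 1 with local medians removed, which was added after seeing the data. Without a replicate it ran from 15 to 149. The cause was not tested. Casp1 and the dimmer Nlrp3 probes had dim signals, at 1.43 to 7.84 times the lowest detected one. No paired analysis was possible because all samples belong to 1 group.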

Other observations

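The ratio of the processed signal to the median spot signal less its local background changed across the replicate 1 array more than across the others. Over 2817 spots of detected probes at columns 1 to 20 its median was 1.40 on replicate 1 and 1.02, 1.09 and 1.05 on replicates 2 to 4. At columns 73 to 164 it was 0.860 on replicate 1 and 0.932 to 0.955 on the others. Il18, Casp1 and the brightest Nlrp3 probe were printed at columns 19, 14 and 7. Their ratios on replicate 1 were 1.42, 1.04 and 1.41. The processed signal may rest on mean pixel values, which were not used here, so the ratio also holds any difference between mean and median pixels.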
